A study of Mus musculus with 12 samples.

Results

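The nuclear genes that encode the subunits of the 5 oxidative phosphorylation complexes, with the complex I assembly factors named in the same series, were examined in mouse dorsal forebrain at 2 ages and in 2 genotypes. Members were the genes whose symbol on the array platform begins with Nduf, Uqcr, Atp5 or Cox4 to Cox8, or is Sdha, Sdhb, Sdhc, Sdhd or Cyc1. A gene was kept when a probe set naming it alone had a log2 value over 4 on at least 3 of the 12 arrays, and its probe set with the highest mean stood for it. Of 91 such genes, 84 passed, out of 11449 genes tested on the arrays. They comprised 33 genes of complex I, 4 of complex II, 9 of complex III, 13 of complex IV (Ndufa4 and the supercomplex factor Cox7a2l among them), 17 of complex V and 8 complex I assembly factors. The study profiled wild-type and Qkf gt/gt mice of the 129/Sv strain; Qkf is Kat6b (Myst4), a histone acetyltransferase, and the mutants carry a gene trap in both alleles. Adult dorsal cerebral cortex came from 3 wild-type males aged 155, 112 and 101 days and 3 mutant males aged 155, 112 and 99 days. Dorsal telencephalon, the embryonic tissue that forms the cortex, was taken at E12.5, a day of gestation on which most of its cells are dividing progenitors, from 3 wild-type and 3 mutant samples whose sex and number of embryos are not labelled. The gene trap was present from conception and in every cell type, so no group separates a cortical effect from an effect elsewhere in the body.

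Oxidative phosphorylation is the process by which mitochondria make most of the ATP of a neuron. Complex I takes electrons from NADH and complex II takes them from succinate; complex III passes them to cytochrome c and complex IV to oxygen, and complex V, the ATP synthase, uses the proton gradient built up on the way. Some subunits of complexes IV and V are encoded by several genes used in different tissues, and a small set of core subunits is encoded in mitochondrial DNA.

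Values are log2 hybridisation signals, and differences are on that log2 scale, so that 1 is a doubling. Every array had the same floor of 2.19, its median over all probe sets lay between 3.64 and 3.74, and arrays of 1 group correlated at 0.989 to 0.997 over all probe sets. Kat6b had values of 9.68, 9.35 and 9.72 in adult wild types against 7.25, 7.17 and 6.92 in adult mutants (limma adjusted p = 0.017), and of 11.28, 11.40 and 11.42 against 6.22, 7.24 and 7.72 at E12.5 (limma adjusted p = 0.00019), so the labels held for all 12 arrays at its probe set; the place of that probe set relative to the gene trap was not analysed here. Adult mutants 1 and 2 stood apart in the actin control, whose 3′ minus 5′ signal was 1.91 and 1.47 there and 1.06 to 1.13 on the other 4 adult arrays. In the Gapdh control the same signal was 0.26 on mutant 1 and -0.06 on mutant 2. It was -0.15 to -0.08 on the other 4, so mutant 2 was close to them. The choroid plexus and cortical hem list (7 of 11 genes measured) averaged 6.31 on adult mutant 3, where the remaining adult arrays had 4.53 to 4.75, and 7.80 on E12.5 mutant 3, where the remaining embryonic arrays had 6.02 to 7.41. A list of ventral telencephalon genes (6 of 10 measured) averaged 7.60 on E12.5 wild type 1 and 7.21 on E12.5 mutant 1. The remaining embryonic arrays had 3.71 to 5.37 for that list. E12.5 wild type 1 and mutant 1 came from a cross of their own, and the remaining embryonic arrays shared another. Scan files carry one date for the 6 adult arrays, another for 5 embryonic arrays and a further one for E12.5 mutant 1, so age and that date cannot be told apart.

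Most oxidative phosphorylation genes were higher in the adult cortex than in the E12.5 telencephalon, by modest amounts. Between wild types, 59 of the 84 members (70.2%) were called higher in the adult and 8 (9.52%) lower at a limma adjusted p under 0.05, and 17 did not pass. Over all genes tested 81.4% were called in this comparison, 38.4% higher and 43% lower. The members' median difference was 0.54, against -0.08 for all genes tested. Few of these changes were large: 16 members (19%) were called at least 2-fold higher and 3 (3.57%) at least 2-fold lower, where all genes tested gave 27.5% and 28.7%. These sizes depend on the probe set that stands for a gene. Another probe set gave a larger rise in some members (Ndufs7, 1.29 against 0.67) and a smaller one in others (Ndufv2, 0.09 against 0.42). Of 45 members with several probe sets past the filter, 13 had differences of both signs. In 63 members every adult value lay above every E12.5 value, and in 8 every adult value lay below, where the corresponding shares of all genes tested were 40.1% and 44.5%. Of the 82 members over 4 on every array, 59 were called higher and 7 lower, with a median of 0.55; Cox6b2 passed the filter through E12.5 arrays alone. The tissues also differed in their cells: summed over a list of cortical neuron genes (10 of 12 measured), the log2 level was 16.35 to 16.42 in adult and 11.82 to 13.11 in E12.5 wild types, and over embryonic progenitor genes (11 of 12 measured) 11.96 to 12.14 and 16.06 to 16.13. Gene by gene, 8 of the 10 neuron genes were called higher in the adult and 1 at least 2-fold lower, and all 11 progenitor genes were called lower. Oligodendrocyte genes (11 of 12) summed to 14.76 to 15.18 in the adult and 8.34 to 8.92 at E12.5, astrocyte genes (8 of 8) to 15.50 to 15.70 and 12.49 to 13.23, microglial genes (8 of 9) to 11.12 to 11.44 and 7.86 to 8.20, and erythroid genes (5 of 8) to 5.11 to 6.76 and 15.70 to 16.26. The part of these cell types in the members' differences was not tested, and in bulk tissue fewer cells of a type and less RNA per cell cannot be told apart.

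**Figure D1:**
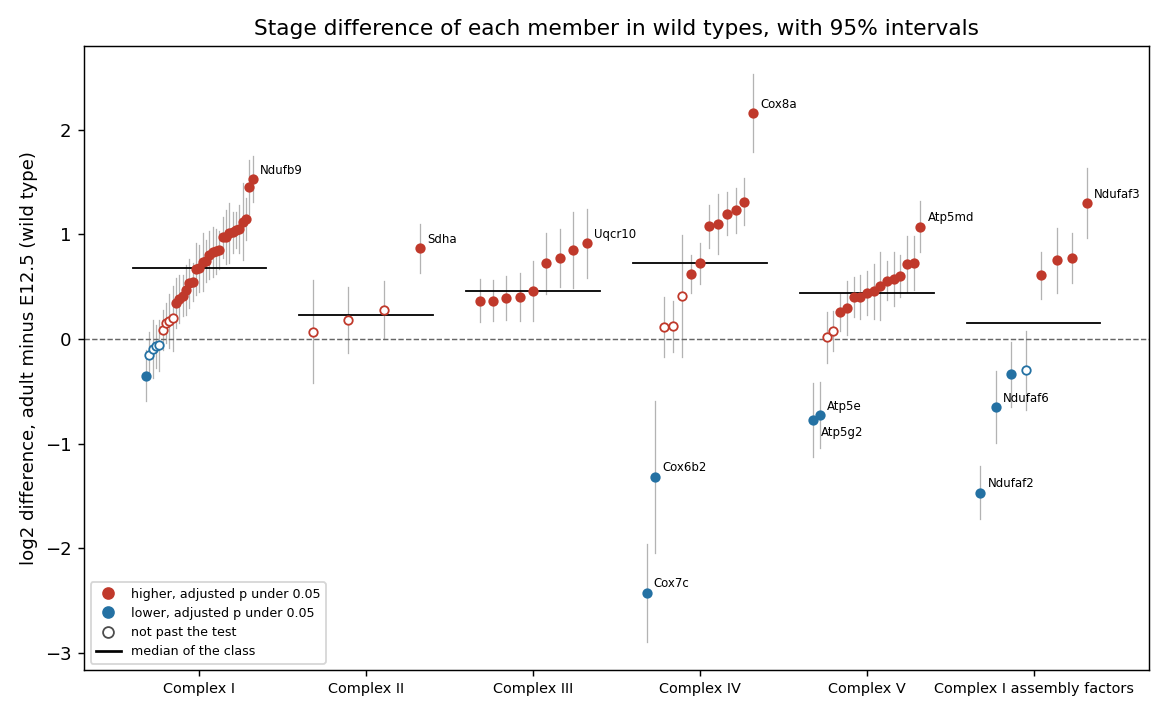
Log2 difference between wild-type adult cortex and E12.5 telencephalon (vertical axis, adult minus E12.5, 3 arrays each) for each of the 84 members, grouped by complex, with 95% intervals from limma. Filled points passed an adjusted p under 0.05 (red higher, blue lower), open points did not, and black bars are medians; complexes I and IV have the highest medians (0.67 and 0.72), and Cox7c at -2.42 and Cox8a at 2.16 are the extremes.

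The promoters of 4 members are shown, because Cox8a and Cox6a1 had the largest rises of complex IV and because Atp5g2 and Atp5g3, which encode the same mature subunit c of the ATP synthase, moved in opposite directions with age. Sequences are from RefSeq (GRCm38.p6), run 5′ to 3′ on the gene's own strand from 250 bases before to 50 bases after the transcription start, and all lie on the minus strand. Capitals mark exact matches, on either strand, to 1 of the motifs searched. The Cox8a window is chr19:7217567-7217866, with the ETS core (the motif of the GABP factors) 6 bases before and again 31 bases after the start. The Cox6a1 window is chr5:115348909-115349208, with the NRF1 palindrome 162 bases before the start. The Atp5g2 window is chr15:102670998-102671297, with the same palindrome 42 bases before the start. The Atp5g3 window is chr2:73911277-73911576, with the ERR motif, that of the estrogen-related receptors, on the opposite strand 52 bases before the start.
Cox8a: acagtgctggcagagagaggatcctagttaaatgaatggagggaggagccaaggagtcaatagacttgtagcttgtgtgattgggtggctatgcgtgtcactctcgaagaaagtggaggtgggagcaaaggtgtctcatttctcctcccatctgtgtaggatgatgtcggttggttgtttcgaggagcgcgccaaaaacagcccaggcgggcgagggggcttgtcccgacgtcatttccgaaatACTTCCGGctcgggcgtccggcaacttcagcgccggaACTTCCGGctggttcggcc
Cox6a1: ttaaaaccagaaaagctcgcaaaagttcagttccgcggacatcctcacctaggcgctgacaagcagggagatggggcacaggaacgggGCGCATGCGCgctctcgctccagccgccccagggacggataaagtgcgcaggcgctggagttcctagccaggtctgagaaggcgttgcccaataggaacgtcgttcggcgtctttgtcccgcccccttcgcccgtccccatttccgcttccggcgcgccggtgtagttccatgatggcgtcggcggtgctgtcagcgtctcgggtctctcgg
Atp5g2: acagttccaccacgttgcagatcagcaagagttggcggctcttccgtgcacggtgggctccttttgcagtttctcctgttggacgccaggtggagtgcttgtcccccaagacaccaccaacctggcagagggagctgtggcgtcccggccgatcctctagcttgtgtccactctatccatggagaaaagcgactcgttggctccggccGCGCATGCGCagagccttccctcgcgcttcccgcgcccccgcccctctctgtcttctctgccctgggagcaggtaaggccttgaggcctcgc
Atp5g3: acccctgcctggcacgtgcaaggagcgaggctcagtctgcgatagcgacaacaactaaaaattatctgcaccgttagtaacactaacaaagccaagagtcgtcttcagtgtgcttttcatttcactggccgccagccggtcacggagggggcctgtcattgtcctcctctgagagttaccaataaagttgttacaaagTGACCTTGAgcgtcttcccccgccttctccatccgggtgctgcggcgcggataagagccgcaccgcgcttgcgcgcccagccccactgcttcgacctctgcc
A promoter was matched for 71 of the 84 members. The NRF1 core GCGCATGC was in 11 of them (15.5%), against 5.7% of the promoters of 9288 genes tested and 2.8% of all 27025 promoters. The longer NRF1 palindrome, in which the core overlaps its own reverse complement, was in 6 members (8.45%), against 2.09% and 0.977%: Atp5g2, Atp5k, Cox6a1, Ndufaf4, Ndufaf5 and Uqcrc1. The YY1 motif AAGATGGC was in 9 members (12.7%), against 4.89% of genes tested and 2.88% of all promoters. The ETS core CCGGAAGT was in 5 members (7.04%), against 8.51% and 4%, and the CRE TGACGTCA in 3 (4.23%), against 3.37% and 1.88%. The ERR motif TCAAGGTCA was in Atp5g3 and Sdhd (2.82%), against 0.28% and 0.407%. The shares were not particular to the members. In 67 promoters of mitochondrial ribosome genes, a list described below, the NRF1 core was in 11.9% and its palindrome in 4.48%. There the YY1 motif was in 17.9%, the ETS core in 16.4%, the CRE in 2.99% and the ERR motif in 0%. The NRF1 core was in 8 of the 50 promoters of members called higher in the adult, in 1 of the 6 called lower and in 2 of the 15 not called. These matches are descriptions of the letters in each window; binding was not measured.

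In complex I, which oxidises NADH, 24 of 33 genes rose between E12.5 and the adult, 1 fell and 8 did not pass, with a median of 0.67. Ndufb9, an accessory subunit of the membrane arm, had values of 11.36, 11.43 and 11.50 at E12.5 and of 12.98, 13.04 and 12.84 in the adult. It rose 2.88-fold (log2 1.53 ± 0.10 SE, limma adjusted p = 5.4e-08). Ndufs5, a further accessory subunit, went from 9.64, 9.67 and 10.03 to 11.17, 11.20 and 11.32, a difference of 1.45 ± 0.12 (SE; limma adjusted p = 3e-07). In both genes the ages did not overlap. The catalytic core moved the same way: Ndufv1, which binds NADH and the flavin, rose by 1.15, Ndufs1, which carries iron-sulfur clusters, by 0.75, and Ndufs8 and Ndufs7, which carry the clusters nearest to ubiquinone, by 0.98 and 0.67. Ndufa2 was the single complex I subunit called lower, with values of 11.89, 11.81 and 11.95 at E12.5 and of 11.46, 11.37 and 11.77 in the adult. Its difference of -0.35 passed the test (limma adjusted p = 0.013) with all arrays and not without adult wild type 2 (-0.27, limma adjusted p = 0.059). The 8 genes that did not pass ran from Ndufc2 at -0.15 to Ndufa7 at 0.20 and included Ndufs4 at -0.06 and Ndufab1, the mitochondrial acyl carrier protein, at 0.16. Of these 8, Ndufa7, Ndufab1, Ndufb6, Ndufc2 and Ndufs4 had probe sets that disagreed in sign, as did the called Ndufa12 and Ndufb2.

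The complex I assembly factors, which help to build the enzyme and are not part of it, moved in both directions. Of 8, 4 rose, 3 fell and Ndufaf4 did not pass, with a median of 0.15. Ndufaf3, which takes part in building the ubiquinone-binding module, had 7.49, 7.62 and 7.63 at E12.5 and 8.74, 8.86 and 9.05 in the adult. It rose by 1.30 ± 0.15 (SE; limma adjusted p = 8e-06). Ndufaf2, a late-acting factor, went the other way, from 10.18, 10.13 and 10.30 to 8.77, 8.72 and 8.71, and fell by 1.47 on the log2 scale, a 2.77-fold decrease (SE 0.12, limma adjusted p = 2.9e-07). The 3 adult values of Ndufaf2 all lay below the lowest E12.5 value. Ndufaf5, an enzyme that modifies Ndufs7, rose by 0.77, Ndufaf7, a methyltransferase of complex I, by 0.75 and Ndufaf8 by 0.61, where the other probe set of Ndufaf8 had -0.05. Ndufaf6 fell by 0.65 and Ndufaf1 by 0.34, with limma adjusted p = 0.0024 and 0.044. The range over the 8 was -1.47 to 1.30.

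Complex II, the succinate dehydrogenase that also belongs to the citric acid cycle, was called in 1 of its 4 genes. Sdha, the flavoprotein that oxidises succinate, had 10.34, 10.25 and 10.38 at E12.5 and 11.26, 11.28 and 11.03 in the adult, and rose by 0.87 ± 0.11 (SE; limma adjusted p = 1.2e-05). Its other probe set past the filter had 2.18, and the mean of both gave 1.53. Sdhb, the iron-sulfur subunit, had 11.29, 11.41 and 11.44 and then 11.67, 11.69 and 11.63, without overlap, yet its difference of 0.28 did not pass (limma adjusted p = 0.059; 95% interval 0.0026 to 0.55). The membrane anchors Sdhd (0.18) and Sdhc (0.07) did not pass either, and the other probe set of Sdhd had -0.66. After quantile normalization 2 of the 4 genes were called higher.

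All 9 genes of complex III rose, with a median of 0.46. The small subunit Uqcr10 had 9.34, 9.46 and 9.59 at E12.5 and 10.28, 10.49 and 10.36 in the adult, a rise of 0.91 ± 0.15 (SE; limma adjusted p = 0.00016). Its other probe sets had 4.07 and 2.10, and the mean of all 3 gave 2.36, so the size of its rise depends on the probe set. Uqcrq, another small subunit, rose by 0.85 ± 0.16 (SE; limma adjusted p = 0.00051), from 9.80, 9.90 and 10.13 to 10.74, 10.78 and 10.86. Among the redox-active subunits, the Rieske protein Uqcrfs1 rose by 0.40 and cytochrome c1, Cyc1, by 0.39. The core proteins Uqcrc1 and Uqcrc2 rose by 0.72 and 0.46, and the lowest rises were those of Uqcrb and Uqcrh at 0.37.

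In complex IV, cytochrome c oxidase, 8 of 13 genes rose, 2 were called lower, Cox7c and Cox6b2, on dim probe sets, and 3 did not pass, with a median of 0.72. Cox8a, the small subunit made in most tissues, had 8.79, 8.88 and 8.90 at E12.5 and 10.97, 11.07 and 11.02 in the adult. It rose 4.47-fold (log2 2.16 ± 0.17 SE, limma adjusted p = 2.3e-07). Cox6a1, a regulatory subunit, rose by 1.31 ± 0.10 (SE), from 13.39, 13.42 and 13.37 to 14.79, 14.82 and 14.51. The ages did not overlap for either gene. Cox4i1, the subunit through which ATP is known to regulate the enzyme, had 12.90, 13.01 and 13.00 and then 14.20, 14.32 and 14.08, a rise of 1.23 ± 0.10 (SE). Ndufa4, long counted with complex I and now with complex IV, rose by 1.20 ± 0.09 (SE), from 10.70, 10.78 and 10.78 to 11.86, 11.96 and 12.03. Cox5b rose by 1.08. Cox6c was called higher at 1.10 on the probe set that stands for it, while its other one had -0.06. Cox5a did not pass at 0.11, and its other probe sets had 0.07 and 0.63.

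Where complex IV has tissue isoforms, Cox6b1 and Cox7a2, used in most tissues, rose, and those best known from muscle, lung and testis had no value over 5.38 on any array. Cox6b1 rose by 0.72 ± 0.09 (SE), from 13.26, 13.34 and 13.27 at E12.5 to 14.05, 14.11 and 13.88 in the adult. Cox6b2, its testis counterpart, had 4.40, 3.28 and 4.55 at E12.5 and 2.91, 2.68 and 2.68 in the adult, a difference of -1.32 to values close to the floor; since it passed the filter through E12.5 arrays alone, this is a description. Cox7a2 rose by 0.62 ± 0.08 (SE), from 12.87, 12.84 and 12.79 to 13.54, 13.45 and 13.38. On probe sets with no letter before _at the rises of Cox6b1 and Cox7a2 were 0.45 and 1.00. Cox7a1, the heart and muscle isoform, had 3.77, 4.26 and 4.26 at E12.5 and 4.92, 4.32 and 4.29 in the adult, a difference of 0.41 that did not pass (limma adjusted p = 0.17). Cox7a2l, which links complexes III and IV into supercomplexes, did not pass at 0.12. The 7 genes that failed the filter had highest values of 4.04 (Cox6a2, over 4 on 1 array and so just outside it), 2.88 (Ndufa4l2), 2.41 (Cox8b), 2.37 (Cox8c), 2.30 (Cox4i2), 2.22 (Ndufb4) and 2.19 (Cox7b2). For Ndufb4, a complex I subunit, this is the probe set that names it alone; a pair of probe sets naming it together with Ndufb4b and Ndufb4c was left out, with wild-type means of 11.26 and 10.66 at E12.5 and 12.21 and 11.59 in the adult. Just inside it, Cox6b2 was over 4 on 4 arrays. Cox7c, a small subunit made in most tissues, had 6.56, 7.27 and 6.99 at E12.5 and 4.48, 4.88 and 4.19 in the adult, and fell 5.37-fold (log2 -2.42 ± 0.21 SE, limma adjusted p = 6.7e-07). Its other probe set had a difference of -2.77, and the highest value of either on any array was 7.82. Both probe sets were dim and their place in the transcript was not analysed here, so whether they measure the mature Cox7c message was not tested.

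**Figure D2:**
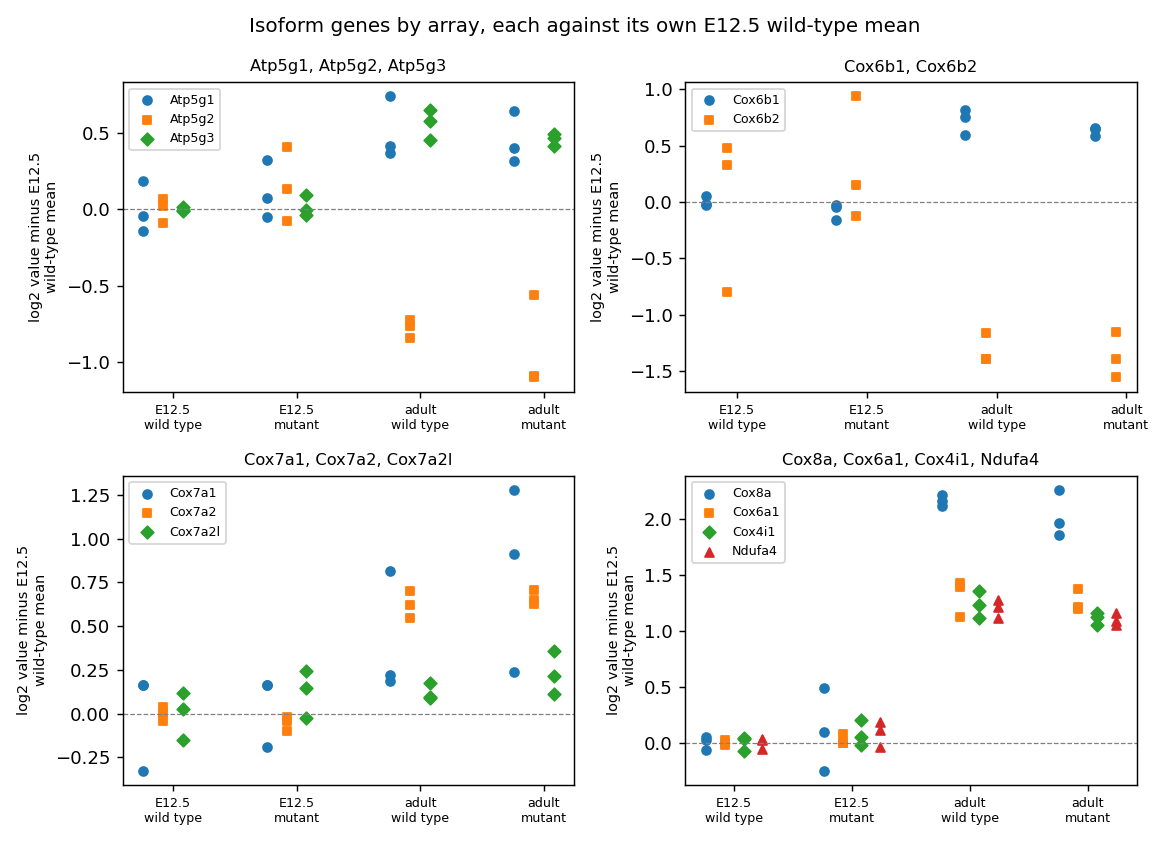
Log2 value of each gene on each array minus that gene's mean over the E12.5 wild types (vertical axis), for isoform families of complexes V and IV and for the 4 complex IV genes with the largest rises; each point is 1 array, and colours and shapes mark genes. Atp5g2 lies below 0 in all 6 adult arrays while Atp5g1 and Atp5g3 lie above it, and Cox6b2 is close to the floor in the adult.

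Complex V, the ATP synthase, rose in 13 of 17 genes and fell in 2, with a median of 0.44. The beta subunit Atp5b, which carries the catalytic sites, had 13.09, 13.22 and 13.36 at E12.5 and 14.00, 13.94 and 13.91 in the adult, a rise of 0.73 ± 0.12 (SE; limma adjusted p = 0.00012). Atp5md, a small protein of the synthase's membrane part, rose by 1.07 ± 0.11 (SE), from 11.04, 11.09 and 11.13 to 12.02, 12.26 and 12.19. The alpha subunit Atp5a1 rose by 0.30 and the gamma subunit Atp5c1, the rotating shaft, by 0.40; each has probe sets that disagreed in sign. The epsilon subunit Atp5e fell by 0.73 (SE 0.14, limma adjusted p = 0.0006), from 11.45, 11.64 and 11.77 to 10.76, 10.94 and 10.98. Atp5o and Atp5mpl did not pass, at 0.02 and 0.07, and the other probe set of Atp5o had -1.18.

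The 3 genes for subunit c, whose ring turns as protons pass, did not move together. Atp5g1 had 10.65, 10.75 and 10.97 at E12.5 and 11.15, 11.20 and 11.53 in the adult, and rose by 0.51 ± 0.15 (SE; limma adjusted p = 0.0078). Atp5g3 had 13.15, 13.13 and 13.13 and then 13.78, 13.72 and 13.59, and rose by 0.56 ± 0.09 (SE; limma adjusted p = 9e-05). Atp5g2 had 11.40, 11.51 and 11.55 and then 10.65, 10.73 and 10.77, and fell by 0.77 (SE 0.16, limma adjusted p = 0.00085). In each gene every adult wild-type value lay outside the E12.5 range. The directions of all 3 were the same under each scaling tried.

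The mutants were tested over the same ages in the same fit, with arrays of their own. There 52 members (61.9%) were called higher in the adult and 7 (8.33%) lower, with a median of 0.39. Over all genes tested 81.7% were called, 39.5% higher and 42.2% lower. Of the 82 members over 4 on every array, which leave out Cox6b2, 51 were called higher and 6 lower. By complex, 21 of 33 genes rose in complex I, 1 of 4 in complex II, 7 of 9 in complex III, 9 of 13 in complex IV and 10 of 17 in complex V. Cox8a, Ndufb9 and Cox6a1 rose by 1.92, 1.27 and 1.24, and Cox7c, Ndufaf2 and Atp5g2 fell by 2.26, 1.51 and 1.07. Cyc1 and Uqcrfs1, called in wild types, did not pass in mutants, with 0.12 and 0.11. Cox7a1 passed in mutants, with a rise of 0.77, and not in wild types. No member's age difference was shown to depend on genotype: 0 of 84 passed the test of that difference itself by limma, 1 had an unadjusted p under 0.05, and 0% and 5.5% of all genes tested did.

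**Figure D3:**
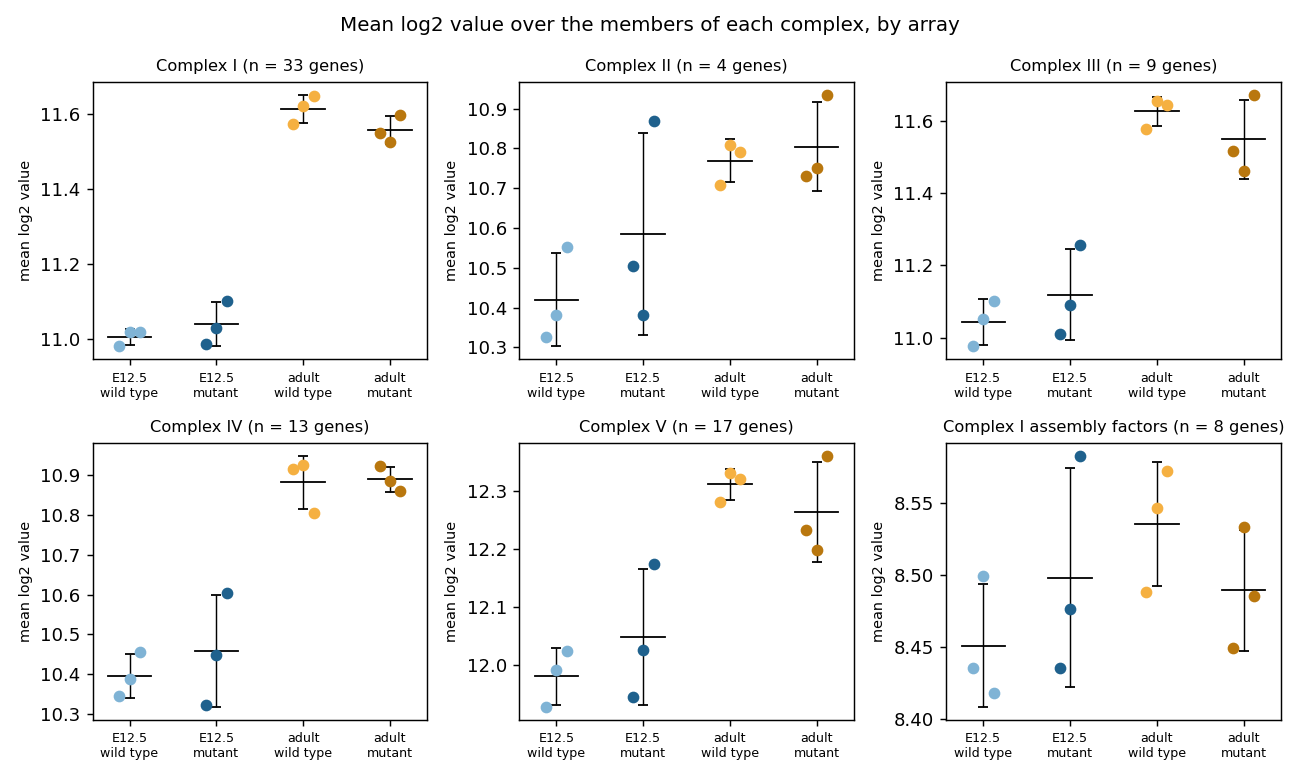
Mean log2 value over the members of each complex (vertical axis, a separate scale per panel) on each of the 12 arrays, with bars for the mean and SD of the 3 arrays of a group. Adult and E12.5 arrays do not overlap for complexes I, III, IV and V; for complex II, E12.5 mutant 3 at 10.87 lies among the adult arrays.

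Genes of other mitochondrial functions were followed between the same 2 wild-type groups. Of 76 genes of the mitochondrial ribosome, which makes the subunits encoded in mitochondrial DNA, 6 rose and 51 fell, with a median of -0.59 (7.89% and 67.1%, against 38.4% and 43% of all genes tested). Mrps22, Mrpl21 and Mrpl12 fell by 1.36, 1.22 and 1.19. Of 37 assembly factors outside the Nduf series, 13 rose and 11 fell, with a median of 0.05. These shares, 35.1% and 29.7%, lay under those of all genes tested in both directions. Ttc19, a complex III factor, and Surf1, a complex IV factor, rose by 2.20 and 1.74, and Nubpl, which delivers iron-sulfur clusters to complex I, fell by 2.60. The pyruvate dehydrogenase and citric acid cycle genes, which supply the electrons, rose in 10 and fell in 2 of 17 (58.8% and 11.8%), with a median of 0.43. There Idh3b, of the NAD-dependent isocitrate dehydrogenase, rose by 1.52, Idh2, of the NADP-dependent enzyme, fell by 3.02, and Suclg2, of the GTP-forming succinyl-CoA ligase, fell by 1.60. Of 17 electron carriers and exchange proteins 9 rose and 5 fell (52.9% and 29.4%), with a median of 0.41. Ckmt1, the mitochondrial creatine kinase, had 4.26, 4.97 and 4.46 at E12.5 and 11.05, 10.94 and 11.35 in the adult, a rise of 6.55 ± 0.19 (SE; limma adjusted p = 5.5e-11). Slc25a14, a brain mitochondrial carrier, and Gpd2, of the glycerol phosphate shuttle, rose by 2.41 and 1.85. ND5, a complex I subunit encoded in mitochondrial DNA and the 1 such gene measured, rose by 1.59, from 12.86, 13.26 and 13.28 to 14.70, 14.72 and 14.75. Directions of these list medians were the same under quantile normalization and under median centring.

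Genes for the control of mitochondrial biogenesis and for mitochondrial DNA mostly fell: of 21, 14 fell (66.7%, against 43% of all genes tested) and 4 rose (19%, against 38.4%), with a median of -1.33. The 3 with the lowest p were Ppargc1b, a transcriptional coactivator that rose by 4.66, Ssbp1, the single-stranded DNA-binding protein of mitochondria, which fell by 2.09, and Yy1, a transcription factor, which fell by 2.16. The others named here were picked after their values were seen. Ppargc1a, the related coactivator, had 6.29, 5.72 and 5.73 at E12.5 and 10.01, 9.68 and 9.98 in the adult, a rise of 3.98 ± 0.22 (SE; limma adjusted p = 1.4e-08). The estrogen-related receptor genes Esrrg and Esrra rose by 4.05 and 1.05. In contrast Nrf1 fell by 1.72, Gabpa by 2.25 and Tfam, which packages mitochondrial DNA, by 1.33. Nrf1 had 8.03, 8.40 and 8.06 at E12.5 and 6.47, 6.63 and 6.23 in the adult, without overlap.

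**Figure D4:**
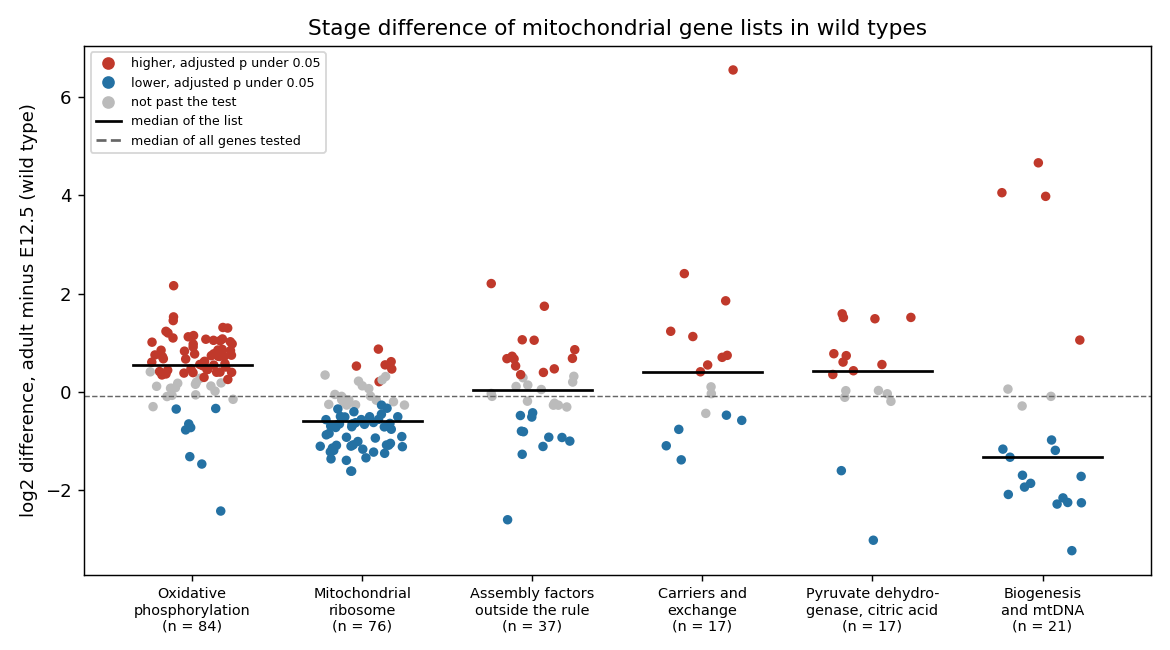
Log2 difference between wild-type adult cortex and E12.5 telencephalon (vertical axis) for each gene of the oxidative phosphorylation members and of 5 other mitochondrial lists, with list medians as black bars and the median of all genes tested (-0.08) dashed. Red and blue points passed a limma adjusted p under 0.05, and the horizontal spread within a list has no meaning; the members' median lies at 0.54 and that of the mitochondrial ribosome at -0.59.

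The mutant and wild-type adult cortices were compared next, since the study asks which genes depend on Kat6b. No member was called: 0 of 84 passed a limma adjusted p under 0.05, and every adjusted p was 1, while 0.0524% of all genes tested passed. Unadjusted p under 0.05 was reached by 3 members, Atp5c1, Cyc1 and Ndufb8, where 4.54% of all genes tested reached it. The differences were small and mostly negative: 66 members had lower means in mutants and 18 higher, against 40.1% and 58.7% of all genes tested, and the median was -0.05 against 0.03. This balance was not particular to the members. Negative shares were 78.6% in members, 76.5% in the pyruvate dehydrogenase and citric acid cycle list and 71.1% in the mitochondrial ribosome. They were 64.9% in the assembly factors outside the Nduf series, 64.7% in the electron carriers and exchange proteins and 33.3% in the biogenesis list. Markers of other cells differed in mean with genotype too: the 11 oligodendrocyte genes measured were all lower in mutants (median -0.26; summed log2 level 14.56 to 14.88 against 14.76 to 15.18 in wild types), and 6 of the 7 endothelial genes were higher (median 0.25), with list means of 6.37 to 6.40 on mutant arrays and 5.97 to 6.24 on wild-type arrays. Among other lists, 7 of 10 cortical neuron genes (median 0.10) and 7 of 8 astrocyte genes (median 0.10) were higher in mutants. The 4 muscle genes measured were all lower (median -0.06), and microglial genes split into 4 higher and 4 lower. Choroid plexus and hem genes were higher in 4 of 7 and lower in 2 (median 0.27). Ventral telencephalon genes were lower in 4 of 6 (median -0.13). The part of these lists in the members' differences was not tested. Atp5c1 had 12.53, 12.46 and 12.33 in wild types and 12.20, 12.20 and 12.30 in mutants, a difference of -0.21 (95% interval -0.40 to -0.02). Without probe sets ending in _s_at or _x_at it was 0.14, on a dim probe set with a wild-type mean of 5.06. Cyc1 had 12.22, 12.36 and 12.21 and then 11.97, 11.99 and 12.18, a difference of -0.22. For these 2 genes no mutant value reached the lowest wild-type value. Ndufb8, a membrane-arm subunit of complex I, had 11.93, 11.98 and 11.89 in wild types and 11.91, 11.63 and 11.57 in mutants, so mutant 1 lay among the wild types. Its difference was -0.23, and Ndufab1 followed with -0.17, which was 0.21 without probe sets ending in _s_at or _x_at. The probe set of Ndufab1 used there had a wild-type mean of 6.64, against 12.45 for the main one. In the other direction Ndufa5, an accessory subunit, had 12.68, 12.70 and 12.77 in wild types and 12.89, 12.89 and 12.87 in mutants, a difference of 0.17 without overlap. Cox7a1 (0.40), Cox7c (0.28) and Ndufa2 (0.22) overlapped between genotypes, and Cox7c was -0.47 without probe sets ending in _s_at or _x_at. All mutant values lay below all wild-type values in 5 members (5.95%; Atp5c1, Cyc1, Ndufa9, Ndufab1 and Ndufv2) and above them in 2 (2.38%; Ndufa5 and Atp5mpl), where 2.66% and 6.73% of all genes tested did so.

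The negative balance differed between adult mutant arrays. Averaged over the 84 members, the log2 value was 11.28, 11.33 and 11.32 in adult wild types and 11.25, 11.23 and 11.32 in mutants. Mutants 1 and 2, those with the wider actin 3′ minus 5′ difference, were lowest, and mutant 3 lay within the wild-type range. The array weights of limma, lower for an array that varies more, were 1.40 and 1.53 for mutants 1 and 2. Mutant 3 had 0.41, the lowest adult weight, and adult wild types had 0.90 to 1.91. The part of RNA quality was not tested. Without mutants 1 and 2, a choice made after their values were seen, 51 members were positive and 33 negative and the median was 0.037; this sets the wild types against mutant 3 alone, the adult array high for choroid plexus and hem genes, and does not test the genotype. Centring each array on its median made 75 members negative, with a median of -0.12. For Cox7a1 the adult values were 4.92, 4.32 and 4.29 in wild types and 5.01, 5.38 and 4.34 in mutants, and its difference was -0.17 without mutants 1 and 2.

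At E12.5 no member was called between genotypes either: 0 of 84 passed by limma, with every adjusted p at 1, while 0.0349% of all genes tested passed, and 0 members had an unadjusted p under 0.05, where 4.51% of all genes did. Here 65 members had higher means in mutants and 19 lower, against 46.2% and 53.5% of all genes tested, and the median was 0.06 against -0.01. Positive shares were 77.4% in members, 76.5% in the electron carriers and exchange proteins and 71.1% in the mitochondrial ribosome. They were 58.8% in the citric acid cycle list, 56.8% in the assembly factors outside the Nduf series and 42.9% in the biogenesis list. The 8 microglial genes measured were all higher in mutants (median 0.18), 6 of 7 endothelial genes were higher (median 0.08) and 9 of 11 oligodendrocyte genes were lower (median -0.16). On the E12.5 arrays the oligodendrocyte list averaged 3.42 to 4.12 and the microglial list 3.96 to 4.74, so both lay near the floor. Cortical neuron genes were lower in 8 of 10 (median -0.11) and progenitor genes in 8 of 11 (median -0.05), and 5 of 8 astrocyte genes were higher (median 0.03). The largest list median was that of the ventral telencephalon genes, lower in 5 of 6 (-0.73). That list averaged 3.71 to 7.60 on the wild-type arrays alone. Choroid plexus and hem genes were lower in 5 of 7 (median -0.03), and mesenchymal genes were higher in 5 of 6 (median 0.21). The part of these lists was not tested. Ndufa9, an accessory subunit near the ubiquinone site, had 10.79, 10.81 and 10.80 in wild types and 10.95, 10.94 and 11.04 in mutants, a difference of 0.18 (95% interval -0.0037 to 0.36). Uqcrfs1 had 10.52, 10.56 and 10.60 and then 10.63, 10.75 and 10.94, a difference of 0.22. Ndufaf8 had 9.14, 9.20 and 9.24 and then 9.32, 9.42 and 9.43, a difference of 0.19. In these 3 genes, and in Ndufa10, every mutant value lay above every wild-type value (4.76% of members, against 3.23% of all genes tested), and 0 members lay wholly below, against 5.06%. In the mitochondrial ribosome list 14.5% of genes lay wholly above and 0% wholly below. Ndufaf7 had 7.12, 7.13 and 6.88 in wild types and 7.12, 7.25 and 7.67 in mutants, so that its difference of 0.31 came with overlap. The lowest p among negative differences were those of Ndufaf3 (-0.25), Ndufb5 (-0.09), Ndufb6 (-0.13) and Ndufc1 (-0.12). One array weighed on the positive balance: the members' mean was 10.80, 10.85 and 10.87 in E12.5 wild types and 10.81, 10.87 and 11.01 in mutants, and without mutant 3, the array highest for choroid plexus and hem genes, 47 members were positive and 37 negative and the median was 0.0079. Without mutant 1, whose scan date differed and which, like wild type 1, was high for ventral telencephalon genes, the median was 0.11.

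The difference between the 2 genotype effects, adult minus E12.5, was negative in 66 members and positive in 18, against 41% and 58.9% of all genes tested, with a median of -0.10 against 0.05. Negative shares were 82.4% in the citric acid cycle list, 78.6% in members, 75% in the mitochondrial ribosome and 70.6% in the electron carriers and exchange proteins. They were 59.5% in the assembly factors outside the Nduf series and 33.3% in the biogenesis list. All 10 cortical neuron genes were positive (median 0.27), as were all 7 choroid plexus and hem genes (median 0.56). Ventral telencephalon genes were positive in 5 of 6 (median 0.60). Microglial genes were negative in 6 of 8 (median -0.22), and all 4 muscle genes were negative (median -0.28). No member passed by limma; the lowest adjusted p, 0.88, was that of Ndufa9, whose adult values were 11.33, 11.38 and 11.32 in wild types and 11.28, 11.17 and 11.31 in mutants. Its genotype difference was -0.09 in the adult and 0.18 at E12.5, and the difference between them -0.27. The other members with the lowest p were Atp5c1 (-0.27), Ndufa10 (-0.29) and Ndufv3 (-0.33) among the negative ones and Ndufa2 (0.31), Cox7a1 (0.36), Ndufa5 (0.15) and Cox7a2 (0.09) among the positive. Without adult mutants 1 and 2 the median was -0.043 and without E12.5 mutant 3 it was -0.044. None of the genes of the other 5 mitochondrial lists, or ND5, was called by limma in either genotype comparison. The p-values measure the spread between these samples, 3 in a group, and the number of arrays limits their precision.

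**Figure D5:**
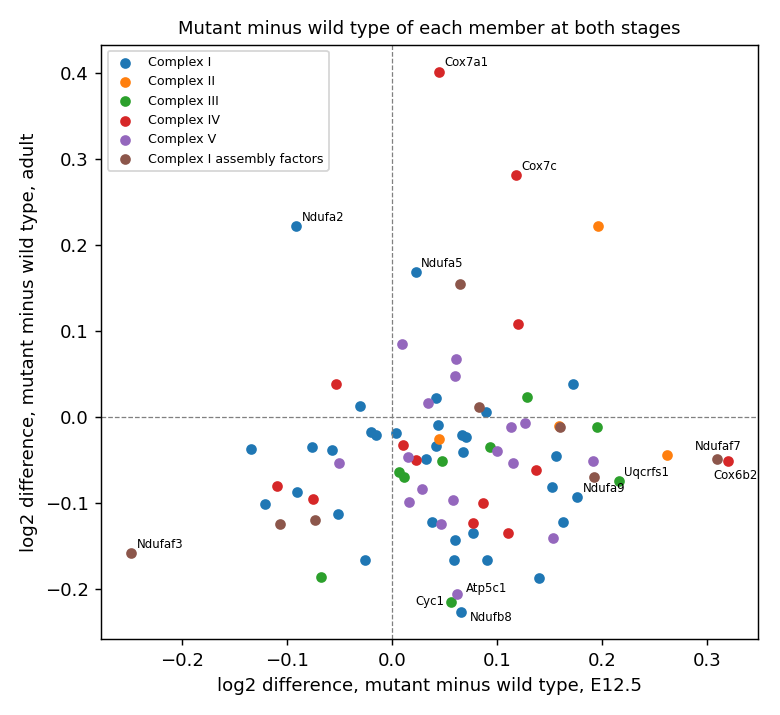
Log2 difference between Qkf gt/gt mutants and wild types of each of the 84 members at E12.5 (horizontal axis) and in the adult (vertical axis), coloured by complex, from 3 arrays a group. Every difference lies between -0.25 and 0.40; 66 points lie below 0 in the adult and 65 lie right of 0 at E12.5, and none passed the test.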

How the data were processed

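Total RNA was amplified with a 2-cycle kit, labelled with biotin and hybridised to a single-colour Affymetrix array of 45101 probe sets. The authors deposited log2 signals made with GCRMA, per the submitters' processing notes; settings and version were not given in the sources used here. GCRMA's floor compresses differences of dim genes. Platform symbols were updated through RefSeq: 34945 probe sets had 1 symbol, 932 several (10 of them of these genes, left out) and 9160 none listed. After the filter, all 12 arrays were fitted together, a mean per group, with limma 3.58.1 (R 4.3.3, eBayes, two-sided), and p-values were adjusted by Benjamini-Hochberg over 11449 genes. The code was tested on simulated data. The members and lists were chosen with earlier results of these data known. Named genes were isoform families, members past a genotype test or with the 4 lowest p in each direction, the 2 largest rises and falls of each complex and the 3 lowest p of each list; others, such as core subunits, were chosen after their values were seen. Adults of like age and embryos of a cross correlated at -0.01 to 0.27 and 0.14 to 0.51 in their deviations from group means. Wild-type and mutant embryos of different crosses correlated at -0.36 to -0.23, and adults of different pairs at -0.30 to 0.23. No member was called between genotypes with pair or cross as a block.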

Additional observations from a re-analysis of the deposited data

Results flagged for a closer look

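Ndufa9, an accessory subunit of complex I, was singled out because all 3 mutant values were under all 3 wild-type values in the adult and over them at E12.5. The difference between its 2 genotype differences was -0.27, and the test of that difference by limma did not pass (adjusted p = 0.88 over all genes tested; without each array in turn the value ran from -0.30 to -0.23). Only the members were screened for this pattern, and its share over all genes tested was not counted. At each age alone, 2.66% of all genes tested lay wholly below in adult mutants and 3.23% wholly above in E12.5 mutants.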

How the results depend on the processing

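Calls of members between genotypes numbered 0 under every alternative run, the age pair or cross as a replicate block included. Leaving out each replicate in turn gave 58 to 60 members higher and 6 to 8 lower with age in wild types, 47 to 55 and 6 to 7 in mutants, and median genotype differences of -0.078 to -0.026 in the adult and 0.0079 to 0.11 at E12.5. Members alone on probe sets with no letter before _at and a mean over 8, an alternative chosen after seeing the data, numbered 51 instead of 84. Of these 51, 37 rose and 3 fell in wild types and 33 and 2 in mutants. The mean difference in wild types was then 0.54, where leaving out each replicate in turn gave means of 0.45 to 0.48. In mutants the median was then 0.46, against 0.39 in the main fit. Median centring gave a mean of -0.11 and a median of -0.12 for the adult genotype difference, a mean of 0.28 and a median of 0.30 for age in mutants, and -0.18 for both the mean and the median of the difference of effects; it moved the median of age in mutants over all genes from -0.05 to -0.15. Quantile normalization gave medians for age of 0.61 in wild types and 0.50 in mutants, and no filter 0.47 in wild types. Without adult mutants 1 and 2, also chosen after seeing the data, the adult median was 0.037, Cox7a1 was -0.17, and its difference of effects -0.22. Other reversals were in genes that had not passed. With probe sets averaged per gene, the adult differences of Cox7c and Ndufab1 were -0.093 and 0.11 and the difference of effects of Atp5c1 0.031. Without probe sets ending in _s_at or _x_at, adult Atp5c1, Cox7c and Ndufab1 were 0.14, -0.47 and 0.21, and the difference of effects of Atp5c1 0.33. Atp5c1 and Ndufab1 then rested on dimmer probe sets, with adult wild-type means of 5.06 and 6.64 against 12.44 and 12.45. On the unique probe sets, Cox7a2 had a difference of effects of -0.079, and Ndufb5, Ndufb6 and Ndufc1 at E12.5 were 0.061, 0.082 and 0.0079. The cause of these was not tested, beyond the smaller number of members on unique probe sets. Signals near the floor limit Cox6b2, Cox7a1 and Cox7c.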
